A study of Mus musculus with 6 samples.

Results

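The mouse genes for mitochondrial ribosomal proteins were taken as every row of the count table named Mrpl or Mrps and a number, with pseudogene rows (-ps) dropped. This gave 77 of 30587 rows, 48 of the large subunit (Mrpl) and 29 of the small subunit (Mrps), and all 77 had enough reads to be tested. RNA sequencing had been done on 6 libraries of bone-marrow-derived dendritic cells (BMDCs) from C57BL/6 mice, 3 per genotype. The 3 WT libraries carried Hif2a fl/fl, loxP-flanked alleles of the gene for HIF-2α (official symbol Epas1), and the 3 KO libraries carried CD11c-Cre with Hif2a fl/fl. Cells of both genotypes had been kept with DMOG, an inhibitor of prolyl hydroxylases that stabilises HIF proteins, for 24 h and then with the lipid antigen α-GalCer for 4 h. KO against WT under both agents is the comparison made here, and the effect of either agent was not analysed. CD11c-Cre acts in cells that express CD11c (Itgax), which include macrophages as well as dendritic cells. The age of the mice and whether the numbered libraries are separate animals or cultures are not given in the labels, and the p-values therefore reflect library-to-library spread, part of which could be technical.

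The mitochondrial ribosome translates the few membrane proteins of the respiratory chain that mitochondrial DNA encodes. Its rRNAs come from mitochondrial DNA, whereas all of its proteins are made from nuclear genes, translated in the cytosol and imported. Some of those proteins descend from bacterial ribosomal proteins and others are specific to mitochondria. HIF transcription factors are known for moving cells from respiration towards glycolysis when oxygen is low.

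Promoter stretches are shown first so that motifs common among these genes can be read beside the members that changed and those that did not pass the test. RefSeq windows (GRCm38.p6) from 250 bases before to 50 bases after the start were matched to 68 of 77 members, with 74 windows in all. CCGGAAG, a core bound by ETS factors such as GABP, lay on either strand in 25 of 74 windows (33.8%), against 8.86% of all 32851 windows and 17.4% of the windows of tested genes. TGCGCA, the repeated core of the site of nuclear respiratory factor 1 (NRF1), lay in 22 windows (29.7%), against 7.76% of all windows and 13.5% of those of tested genes. At least 1 of these 2 motifs was present in 52.7% of member windows and 15.3% of all windows. This combined share was not computed for the windows of tested genes, where each single motif was more frequent than in all windows. The following stretches of 120 bases, printed 5′ to 3′ on the gene's strand, lie before the RefSeq start and outside GENCODE exons, and capitals mark CCGGAAG or TGCGCA as they occur on that strand. The first 4 belong to members that changed between genotypes and hold neither motif in the stretch shown. The last 4 belong to members that did not pass the test and were picked because they hold 1 or both. Many other members that did not pass hold neither, among them Mrps14, Mrps15 and Mrps25, so these 8 stretches do not give shares.
Mrps2, chr2:28467946-28468065, plus strand: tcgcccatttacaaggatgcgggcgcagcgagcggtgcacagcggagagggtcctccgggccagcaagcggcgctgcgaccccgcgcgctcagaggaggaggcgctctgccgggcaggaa
Mrpl24, chr3:87919386-87919505, plus strand: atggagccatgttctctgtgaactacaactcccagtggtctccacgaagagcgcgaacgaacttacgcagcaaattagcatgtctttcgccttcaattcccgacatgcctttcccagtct
Mrpl1, chr5:96209961-96210080, plus strand: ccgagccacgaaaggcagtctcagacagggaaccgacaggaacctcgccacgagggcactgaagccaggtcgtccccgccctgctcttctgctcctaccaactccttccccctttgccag
Mrps33, chr6:39810989-39811108, minus strand: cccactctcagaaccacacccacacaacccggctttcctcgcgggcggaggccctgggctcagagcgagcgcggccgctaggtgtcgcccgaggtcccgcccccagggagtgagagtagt
Mrpl34, chr8:71464806-71464925, plus strand: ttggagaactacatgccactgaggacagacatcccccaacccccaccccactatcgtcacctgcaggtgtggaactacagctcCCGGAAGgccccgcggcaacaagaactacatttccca
Mrpl22, chr11:58171541-58171660, plus strand: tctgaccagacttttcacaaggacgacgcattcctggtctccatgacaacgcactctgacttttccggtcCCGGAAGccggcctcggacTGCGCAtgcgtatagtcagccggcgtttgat
Mrpl58, chr11:115403632-115403751, plus strand: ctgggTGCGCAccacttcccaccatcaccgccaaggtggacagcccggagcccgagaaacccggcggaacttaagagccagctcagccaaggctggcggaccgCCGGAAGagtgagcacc
Mrps18a, chr17:46110866-46110985, plus strand: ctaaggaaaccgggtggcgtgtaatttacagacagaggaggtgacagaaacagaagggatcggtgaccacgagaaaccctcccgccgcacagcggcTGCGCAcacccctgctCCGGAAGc

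Over the whole windows, of the changed members with a match, CCGGAAG was found only in that of Mrps33 and TGCGCA in none. The 25 matched genes with CCGGAAG had a median log2 fold change of 0.00, and the 43 without it one of 0.05. For TGCGCA the medians were 0.04 in 21 genes with it and 0.04 in 47 without, and for the longer NRF1 core CGCATGCG 0.08 in 7 and 0.03 in 61. The medians for AAGATGG were 0.07 in 13 genes and 0.03 in 55, and those for GATGGCG, another YY1 core, 0.09 in 8 and 0.03 in 60. None of these differences was tested. AAGATGG, a core bound by YY1, lay in 13 windows (17.6%), against 7.09% of those of tested genes. CACGTG, the E-box bound by MYC, lay in 7 windows of 5 genes (9.46% of windows, against 9.92%). The median log2 fold change was 0.11 in those 5 genes and 0.04 in the 63 without it, a difference not tested. The hypoxia response element cores ACGTG and GCGTG, the first of which overlaps the E-box, lay in 19 (25.7%, against 25.3%) and 42 windows (56.8%, against 49.8%). Of the changed members, Mrps2 held ACGTG, and Mrps2, Mrps33 and Mrpl55 held GCGTG. For ACGTG the median log2 fold changes were 0.02 in 16 genes with it and 0.04 in 52 without. Those for GCGTG were 0.04 in 38 and 0.03 in 30, and neither difference was tested. Median GC content was 58.5% in member windows, 52.7% in all windows and 60.7% in those of tested genes, and its part in these shares was not tested. A match describes letters in a window and is not a bound site.

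Messenger RNA of the mitochondrial ribosome differed little between genotypes. Of the 77 members, 3 rose in KO (Mrps2, Mrpl55 and Mrpl1), 2 fell (Mrps33 and Mrpl24) and 72 did not pass the test (edgeR quasi-likelihood test, Benjamini-Hochberg adjusted p under 0.05 over 13249 genes). That is 6.49% of members, where 25.8% of all tested genes were called, 13.8% higher and 12.0% lower. Among the 7901 tested genes in the members' range of CPM (reads of a gene scaled to a common library size), 22.8% were called (11.9% higher, 10.9% lower). With 1 library left out, the counts were 1 higher and 0 lower without WT 1 or KO 3, 4 and 0 without WT 2, 3 and 0 without KO 2, and 2 and 4 without WT 3 or KO 1. Log2 fold changes of KO over WT ran from -0.30 to 0.40, so no member changed 2-fold, and their median of 0.04 compares with -0.01 over all tested genes. The quartiles were -0.06 and 0.12 in members and -0.20 and 0.17 in all tested genes.

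A fold change as small as these is bounded by its interval rather than by a missed threshold. The 95% interval of the fitted change stayed within 1.5-fold either way in 73 of 77 members (94.8%), against 64.5% of all tested genes and 68.3% of those in the members' CPM range. The exceptions were Mrpl33, Mrps11, Mrps18c and Mrps28, all within 2-fold and all with a mean of fewer than 10 CPM in WT. At an unadjusted p under 0.05, 11 members were higher and 4 lower, 19.5% of members against 37.2% of all tested genes. Libraries of the genotypes did not overlap in 16 of 77 members (20.8%), 8 with all KO libraries above and 8 with all below, against 40.4% of all tested genes (20.5% above, 20.0% below) and 38.2% of those in the members' CPM range (19.0% above, 19.2% below).

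**Figure D1:**
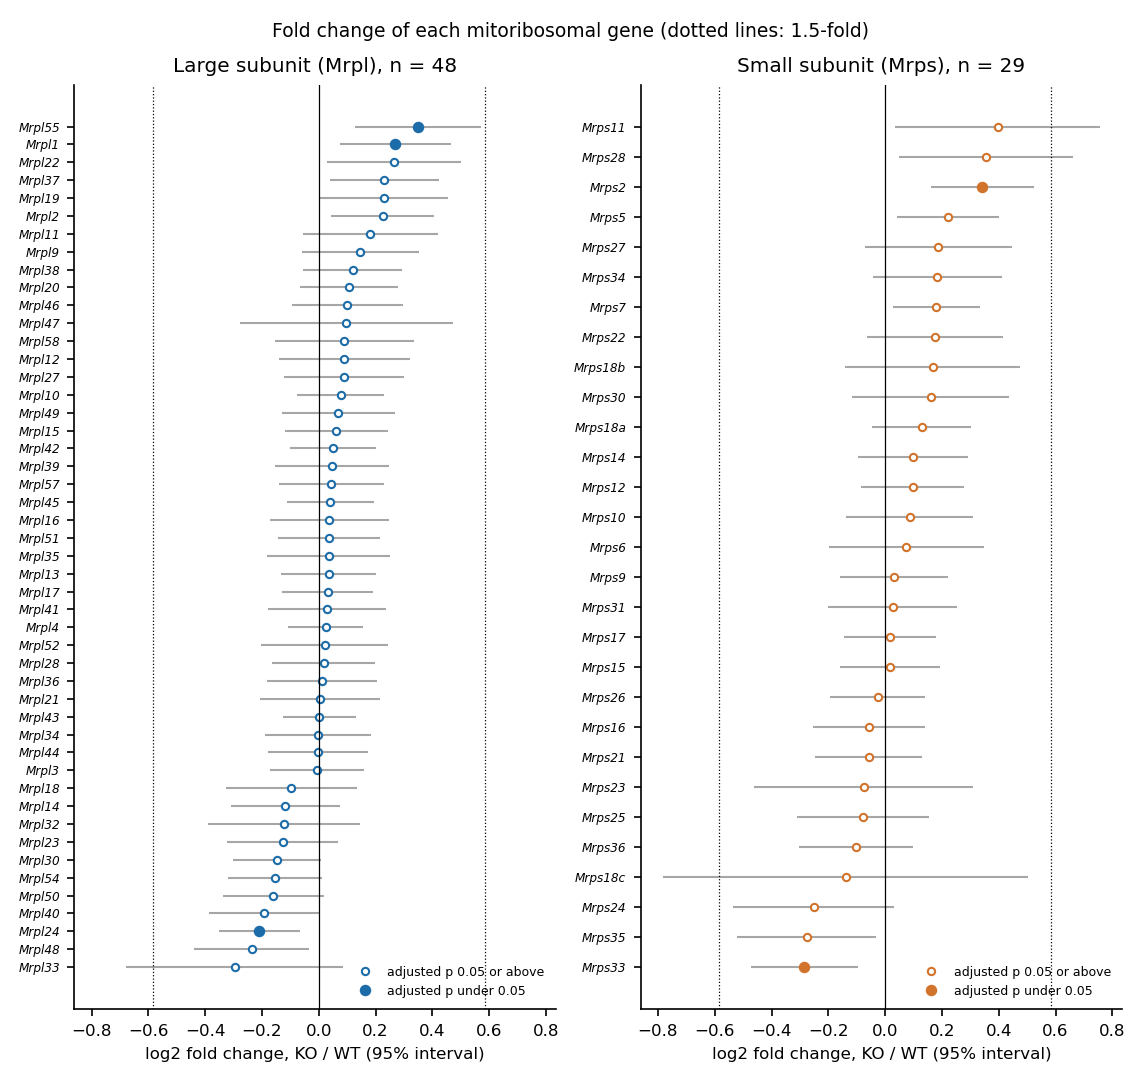
Log2 fold change of KO over WT with its 95% interval (x axis) for each of the 48 large-subunit and 29 small-subunit genes (rows), with filled points for the 5 that passed the test and dotted lines at 1.5-fold. Points lie on both sides of 0, from -0.30 for Mrpl33 to 0.40 for Mrps11, and 73 intervals stay between the dotted lines.

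Of the small-subunit members, Mrps2 had the lowest p. Mrps2 (chr2:28468066-28471178, plus strand, mm10) is the counterpart of bacterial protein S2, which sits on the solvent side of the small subunit. It stood at 23.3, 23.9 and 22.2 CPM in WT 1 to 3 and at 27.2, 30.0 and 30.8 CPM in KO 1 to 3. Every KO library was above every WT library, and the log2 fold change was 0.34 ± 0.08 (SE, n = 3 per genotype, 1.27-fold, edgeR adjusted p = 0.00931). The call held in 15 of 16 alternative fits and was lost without KO 3 (0.31, edgeR adjusted p = 0.0568).

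Mrps33 (chr6:39801804-39810988, minus strand) is a small-subunit protein specific to mitochondria. It stood at 32.2, 31.6 and 28.1 CPM in WT and 26.8, 23.5 and 25.2 CPM in KO. All KO libraries were below all WT libraries, with a log2 fold change of -0.28 ± 0.09 (1.22-fold lower, edgeR adjusted p = 0.0289). The call was lost without WT 1 (-0.24), WT 2 (-0.26), KO 2 (-0.24) or KO 3 (-0.28), under scaling to library size only (-0.25) and under a GC and length offset (-0.20).

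In the large subunit, Mrpl55 and Mrpl1 rose. Mrpl55 (chr11:59202486-59206134, plus strand) is the counterpart of bacterial L31. It stood at 13.4, 16.3 and 15.0 CPM in WT and 20.4, 18.7 and 17.7 CPM in KO, without overlap. The log2 fold change was 0.35 ± 0.10 (1.27-fold, edgeR adjusted p = 0.0235), and the call was lost without WT 1 (0.28) or KO 1 (0.30). Mrpl1 (chr5:96209493-96266727, plus strand) is the counterpart of the L1 protein, which forms the mobile stalk beside the exit site for tRNA. It stood at 16.9, 15.9 and 16.2 CPM in WT and 20.7, 20.0 and 18.3 CPM in KO, again without overlap. Its log2 fold change of 0.27 ± 0.09 (1.21-fold, edgeR adjusted p = 0.043) was the closest to the threshold, and the call was lost in 10 of 16 alternative fits, among them all 6 that leave out 1 library (0.23 to 0.32).

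Mrpl24 (chr3:87919506-87923672, plus strand), the counterpart of a protein at the exit of the peptide tunnel, was the large-subunit member that fell. It is among the members with most reads, at 53.4, 53.2 and 49.7 CPM in WT and 45.7, 42.6 and 46.9 CPM in KO. The highest KO library lay below the lowest WT library, with a log2 fold change of -0.21 ± 0.07 (1.16-fold lower, edgeR adjusted p = 0.0327). The call was lost in 8 of 16 alternative fits, including those without WT 1 (-0.18), WT 2 (-0.19), KO 2 (-0.17) or KO 3 (-0.24). Its exons overlap those of Rrnad1 on the other strand, and the strand setting of the counting is not given in the sources used here. Rrnad1 itself did not pass the test, at 11.4 CPM in WT and 11.7 CPM in KO.

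**Figure D2:**
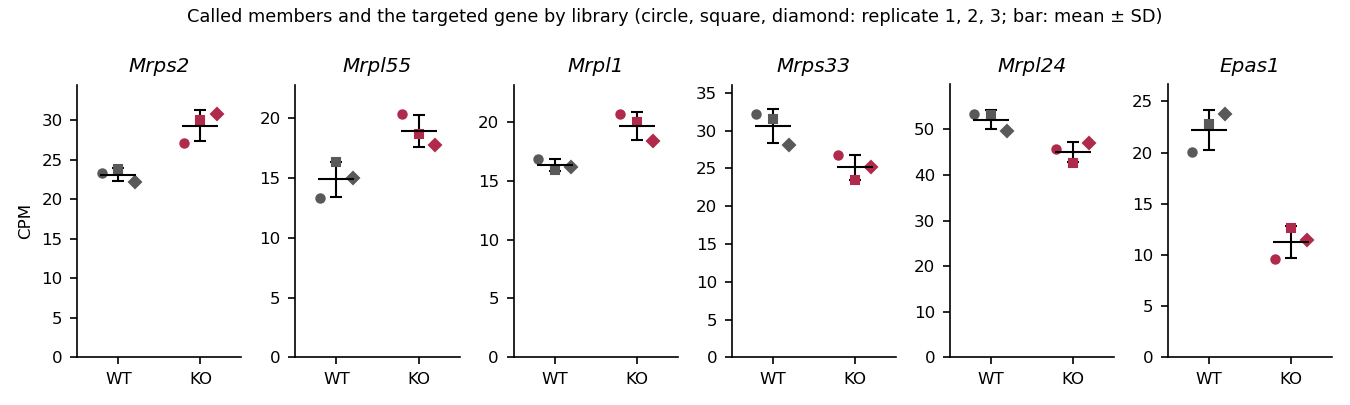
CPM (y axis, from 0) in each WT and KO library for the 5 members that passed the test and for Epas1, the targeted gene, with circle, square and diamond for replicates 1, 2 and 3 and bars for mean ± SD (n = 3). The genotypes do not overlap in any panel, and the distance between them is 1.16-fold to 1.27-fold for the members and 1.97-fold for Epas1.

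The call counts of the subunits were alike in size. Of 48 large-subunit genes, 2 rose and 1 fell, with a median log2 fold change of 0.04 and 34 values above 0. Of 29 small-subunit genes, 1 rose and 1 fell, with a median of 0.08 and 19 values above 0. Names and positions differ for a few proteins: Mrps30 and Mrps18a encode proteins of the large subunit, and the product of Mrps36 is a subunit of the 2-oxoglutarate dehydrogenase complex rather than of the ribosome. Sorted by position, the large subunit had 50 members (2 higher, 1 lower, median 0.04) and the small subunit 26 (1 higher, 1 lower, median 0.05). The difference between the subunits was described and not tested.

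Summed over genes, large-subunit RNA came to 1353, 1399 and 1259 CPM in WT 1 to 3 and 1398, 1319 and 1364 CPM in KO 1 to 3. The KO values lie inside the range of WT, and the means were 1337 ± 71.5 and 1360 ± 39.7 CPM (SD, n = 3). Small-subunit RNA came to 613, 638 and 576 CPM in WT and 651, 603 and 622 CPM in KO, with overlap again (609 ± 31.3 and 625 ± 24.0 CPM). The ratio of large to small was 2.21, 2.19 and 2.19 in WT and 2.15, 2.19 and 2.19 in KO. It was thus within a few hundredths in all 6 libraries, lowest in KO 1.

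Medians over members spread more widely among the WT libraries than between the genotypes. The median log2 deviation of large-subunit genes from their own mean was 0.01, 0.06 and -0.11 in WT 1 to 3 and 0.06, -0.03 and 0.02 in KO 1 to 3. Small-subunit genes gave -0.04, 0.07 and -0.11 in WT and 0.09, -0.02 and 0.01 in KO. WT 3 was lowest in both subunits, the highest library was WT 2 in the large subunit and KO 1 in the small, and WT 1 lay above 0 in the large and below 0 in the small. WT 3, which has the fewest total counts (14668641), held the lowest value of 36 of 77 members, and KO 1, which has the most (17884160), the highest of 30. WT 2 held the highest of 17 and had 25408 rows with at least 1 read, where the others had 18763 to 22275. The part of depth or of a library's quality in these deviations was not tested. Without WT 2 and KO 1, 4 members were called higher and 2 lower, with a median of 0.05.

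**Figure D3:**
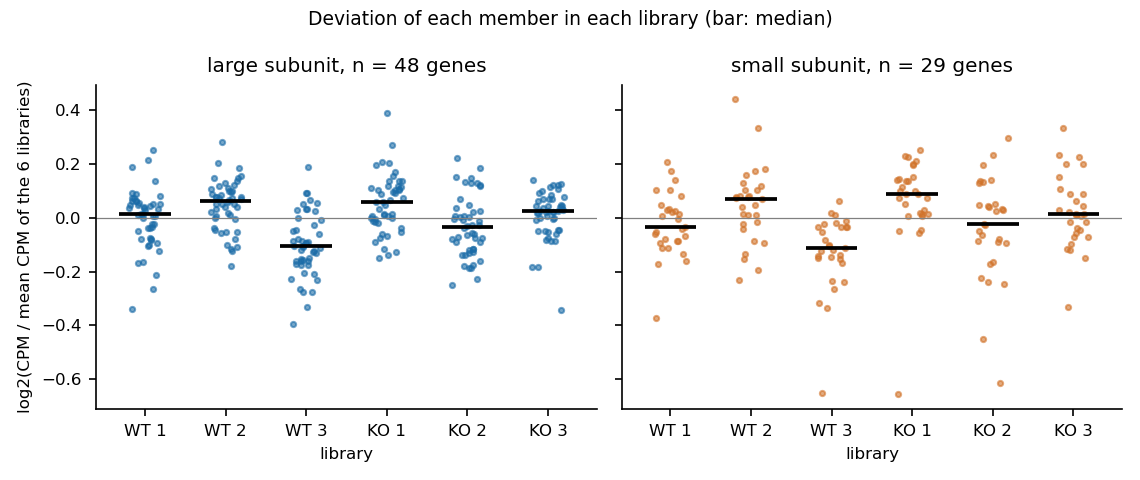
Log2 of each member's CPM over its mean in the 6 libraries (y axis), by library (x axis), for large-subunit and small-subunit genes, with bars at the medians. In both panels WT 3 is lowest (median -0.11), and the medians of the other 5 libraries lie between -0.04 and 0.09.

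By origin, the large subunit had 30 members with a bacterial counterpart (2 higher, 1 lower, median 0.04) and 20 specific to mitochondria or an extra copy as Mrps18a (0 called, median 0.04). In edgeR, 2 of those 20 had an unadjusted p under 0.05, and none was called by the Wald test of DESeq2 either. The small subunit had 16 with a bacterial counterpart (1 higher, median 0.08) and 10 specific to mitochondria or an extra copy as Mrps18b (1 lower, median -0.00). All KO libraries lay above all WT libraries in 8 of the 46 members with a bacterial counterpart and 0 of the 30 others, and below in 4 of 46 and 4 of 30, where 20.5% of all tested genes lay above and 20.0% below. The difference by origin was not tested.

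The 8 members with all KO libraries above comprise the 3 called higher and 5 that did not pass the test, given here because the genotypes did not overlap. Mrps11, the platform protein S11, stood at 6.09, 6.22 and 4.02 CPM in WT and 7.40, 6.93 and 7.25 CPM in KO (log2 fold change 0.40 ± 0.17, edgeR adjusted p = 0.101). Mrps11 thus has the highest fold change of all members and a low WT 3. Mrpl22, a protein of the tunnel wall, stood at 14.0, 18.0 and 13.9 CPM in WT and 18.7, 18.3 and 18.1 CPM in KO (0.27 ± 0.11, edgeR adjusted p = 0.0918). Here WT 2 reached nearly to the KO libraries, and without WT 2 the value was 0.40 (edgeR adjusted p = 0.0173). Mrpl2, the counterpart of the L2 protein near the peptidyl transferase centre, stood at 26.9, 26.2 and 25.4 CPM in WT and 28.3, 33.0 and 30.3 CPM in KO (0.22 ± 0.08, edgeR adjusted p = 0.0661). Mrpl2 passed without KO 1 (0.28). Mrps5 and Mrps7, counterparts of small-subunit proteins S5 and S7, gave 0.22 ± 0.08 and 0.18 ± 0.07 (edgeR adjusted p = 0.0695 and 0.0807).

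Of the 8 members with all KO libraries below all WT libraries, 6 did not pass the test: Mrpl48, Mrpl33, Mrpl50, Mrpl54, Mrpl30 and Mrpl14. Mrpl48 stood at 29.3, 33.5 and 26.7 CPM in WT and 24.9, 24.5 and 26.7 CPM in KO (-0.24 ± 0.09, edgeR adjusted p = 0.0811), and passed without WT 3 (-0.30, edgeR adjusted p = 0.0397). The lowest WT and the highest KO library of Mrpl48 are nearly level. The others gave log2 fold changes from -0.30 (Mrpl33, edgeR adjusted p = 0.249) to -0.12 (Mrpl14, edgeR adjusted p = 0.364).

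Members with a particular place in the ribosome were followed whatever their change. The stalk, which recruits translation factors, is built from Mrpl10 and Mrpl12 on a base formed by Mrpl11. Their log2 fold changes were 0.08 ± 0.07, 0.09 ± 0.11 and 0.18 ± 0.11, none past the test (edgeR adjusted p = 0.468, 0.588 and 0.257). Mrpl10 stood at 40.9, 42.0 and 43.0 CPM in WT and 44.8, 40.9 and 47.0 CPM in KO, and Mrpl11 at 27.9, 30.8 and 21.8 against 31.5, 28.7 and 31.1 CPM. Mrpl12, with 17.7, 17.4 and 14.1 CPM in WT and 16.2, 18.5 and 17.8 CPM in KO, overlapped likewise.

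Mammals have 3 genes for S18-like proteins, of which Mrps18b and Mrps18c products sit in the small subunit and that of Mrps18a in the large. Mrps18a stood at 28.3, 30.2 and 30.6 CPM in WT and 34.4, 30.0 and 33.1 CPM in KO (0.13 ± 0.08, edgeR adjusted p = 0.27). Mrps18b stood at 6.45, 9.13 and 8.05 CPM in WT and 8.94, 9.12 and 8.41 CPM in KO (0.17 ± 0.14, edgeR adjusted p = 0.43). Both overlapped between genotypes. Mrps18c, with the fewest reads of all members, was counted with 29, 36 and 20 reads in the WT libraries and 33, 19 and 34 reads in the KO libraries. Its log2 fold change of -0.14 ± 0.30 had an interval from -0.78 to 0.50, the least certain among members. Per length, mean levels in reads per kilobase of exon, scaled as CPM, were 8.43 for Mrps18a, 4.00 for Mrps18b and 1.60 for Mrps18c.

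Mrps30, a large-subunit protein despite its name, stood at 9.76, 11.3 and 8.80 CPM in WT and 10.2, 10.9 and 12.4 CPM in KO (0.16 ± 0.13, edgeR adjusted p = 0.395). Mrps36 stood at 19.4, 19.1 and 17.7 CPM in WT and 18.1, 16.0 and 18.1 CPM in KO (-0.10 ± 0.09, edgeR adjusted p = 0.464). Neither passed the test, and in both the genotypes overlapped.

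Level and change were compared per length of exon. The most abundant members were Mrps21 (49.4 reads per kilobase, scaled as CPM), Mrpl34 (41.0), Mrpl54 (37.3), Mrpl43 (37.2) and Mrpl41 (31.6), and the least abundant Mrpl33 (0.482). Mrps21 stood at 39.2, 39.6 and 32.9 CPM in WT and 38.4, 34.2 and 34.7 CPM in KO (log2 fold change -0.06 ± 0.09, edgeR adjusted p = 0.67). Mrpl34 stood at 24.2, 27.1 and 23.5 CPM in WT and 24.6, 23.9 and 26.1 CPM in KO (-0.00 ± 0.09, edgeR adjusted p = 0.986). None of these most abundant members passed the test. Exon length here is the union of annotated exons, so levels per length depend on the annotation. For Mrpl33 that union is 7326 bases, where the median member has 2533. Its exons also overlap those of Gm43809 on the same strand by 261 bases, so its low level per length is uncertain.

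**Figure D4:**
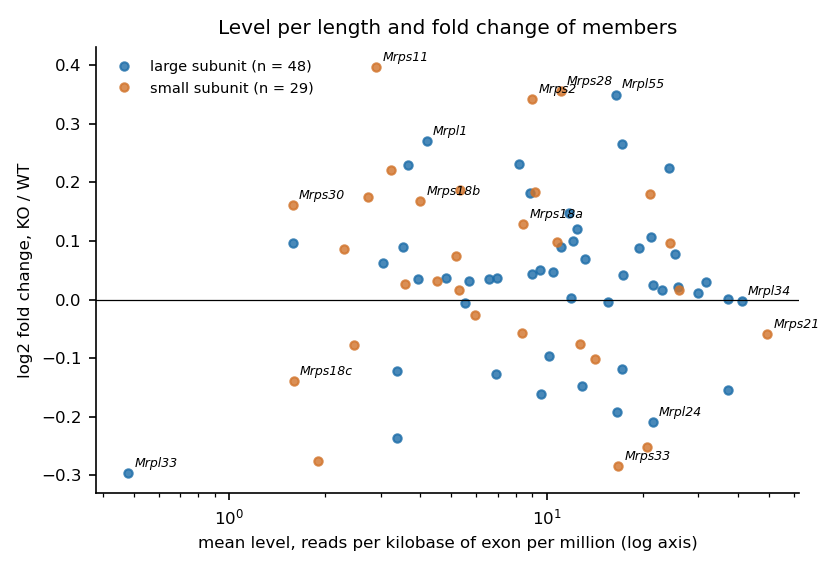
Mean level in reads per kilobase of exon, scaled as CPM (x axis, log scale) against the log2 fold change of KO over WT (y axis) for 48 large-subunit and 29 small-subunit genes. Levels run from 0.482 to 49.4, and members above and below 0 occur at low, middle and high levels.

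The members lie on 17 chromosomes, and many share a start region with a neighbour. A protein-coding gene on the other strand started within 1000 bases of the member's own start in 33 of 77 members (42.9%), against 16.7% of 11702 tested coding genes. Of the 30 such partners that were tested, 11 were called, where 25.8% of all tested genes were called. Of these partners 5 rose and 6 fell, 6 with the same sign as the member and 5 with the other. The 5 members that passed the test have no such partner. Mrpl51 lies head to head with Ncapd2, a condensin subunit, which rose by a log2 fold change of 0.63 beside 0.04 ± 0.08 for Mrpl51. Mrpl49 lies head to head with Fau, which encodes a cytosolic ribosomal protein and fell by 0.27 on the log2 scale beside 0.07 ± 0.09 for Mrpl49. Mrps7 (0.18 ± 0.07) and its partner Gga3 (0.21, called) were both higher. Mrpl48 (-0.24 ± 0.09) and Rab6a (-0.18, called) were both lower. Mrpl46 and Mrps11 lie head to head with each other (0.10 ± 0.09 and 0.40 ± 0.17), so both count among the 30 partners. In each of these pairs, from Mrps7 on, the exons of the partners overlap on opposite strands. Exons of 32 members overlap those of another gene, where reads of both may have been mixed, and without them 45 members gave 3 higher and 1 lower.

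Protein families of cytosolic translation and of respiration were fitted in the same model. Of 75 tested cytosolic ribosomal proteins, 59 fell and 0 rose, with a median log2 fold change of -0.30, which ran from -0.35 to -0.25 over the alternative fits. Of the 75, 38 were lower without WT 1 or KO 3, 40 without WT 2 or KO 2, 70 without WT 3 and 66 without KO 1. None of the 75 was called higher by DESeq2 or at an unadjusted p under 0.05 in edgeR. The respiratory chain was counted here together with the Atp5 genes (ATP synthase). Of these 76 nuclear-encoded genes, 2 rose and 8 fell, with a median of -0.07 (-0.12 to -0.02). Those lower were 3 without WT 1, WT 2 or KO 3 and under scaling to library size only, 4 without KO 2, 13 without WT 3 and 17 without KO 1, and the GC and length offset gave 6 higher and 9 lower. The median of the mitoribosomal genes ran from 0.00 to 0.08 over the same fits, and under the offset it was 0.06 where that of the respiratory chain was -0.02. The difference between families was not tested.

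**Figure D5:**
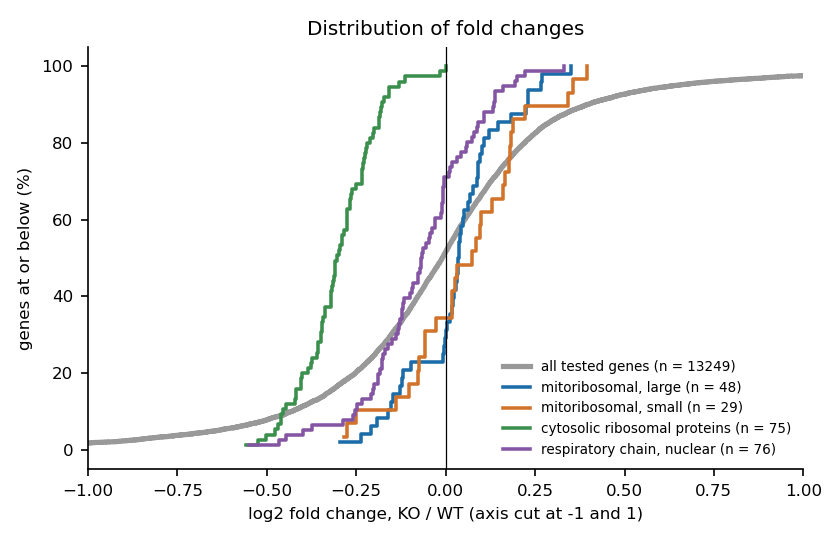
Cumulative share of genes (y axis, percent) at or below a log2 fold change of KO over WT (x axis, cut at -1 and 1). Curves are for large-subunit and small-subunit mitoribosomal genes, cytosolic ribosomal proteins, respiratory chain subunits (with the Atp5 genes) and all tested genes. The large-subunit and small-subunit curves cross 0 more steeply than that of all tested genes (medians 0.04 and 0.08 against -0.01). That of cytosolic ribosomal proteins lies to the left (median -0.30).

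Further proteins of the mitochondrial ribosome carry other names. Of 6 such genes listed, 5 had a row in the count table under the listed symbol. Likewise, 20 of 21 listed genes in the mitochondria-specific group of the large subunit had a row, so the ribosome is not covered in full. Of Dap3, Ptcd3, Chchd1, Aurkaip1 and Gadd45gip1, 1 passed the test. Gadd45gip1, a large-subunit protein also known as CRIF1, stood at 2.72, 4.60 and 3.34 CPM in WT and 6.63, 4.62 and 5.39 CPM in KO. WT 2 and KO 2 were nearly level, and the log2 fold change was 0.65 ± 0.21 (1.57-fold, edgeR adjusted p = 0.0365). The call was lost without WT 1 (0.49), WT 3 (0.62), KO 1 (0.50) or KO 3 (0.67). The other four gave log2 fold changes from -0.15 (Ptcd3) to 0.10 (Chchd1).

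Of 25 tested factors that assemble the mitochondrial ribosome, 2 rose and 1 fell, with a median of 0.05. Rbfa, which matures the small-subunit rRNA, fell from 49.2 ± 3.61 to 40.0 ± 4.93 CPM (-0.30 ± 0.09, edgeR adjusted p = 0.0277), a call lost without WT 1 (-0.32), WT 2 (-0.23) or KO 2 (-0.20). Dhx30, an RNA helicase of mitochondrial RNA granules, rose from 46.6 ± 2.78 to 54.0 ± 2.16 CPM (0.21 ± 0.07, edgeR adjusted p = 0.0336), a call lost without WT 1 (0.21), WT 2 (0.17), KO 2 (0.19) or KO 3 (0.21). Rcc1l, an assembly factor, rose from 8.39 ± 0.35 to 10.8 ± 0.944 CPM (0.37 ± 0.12, edgeR adjusted p = 0.0368). It was lost in every fit that left out 1 library except the one without WT 3. Under the GC and length offset 0 assembly factors rose and 1 fell, and the DESeq2 Wald test gave the same counts.

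None of 13 mitochondrial translation factors passed the test (median -0.03), 2 had an unadjusted p under 0.05 in edgeR, and DESeq2 called 0. The lowest p among them was that of Gfm1, an elongation factor (0.18 ± 0.08, edgeR adjusted p = 0.097). None of 11 genes for replication and transcription of mitochondrial DNA passed (median -0.09, 1 at an unadjusted p under 0.05 in edgeR, 0 by DESeq2). Ssbp1, which binds single-stranded mitochondrial DNA, had the lowest p (-0.25 ± 0.10, edgeR adjusted p = 0.076) and passed without WT 3 (-0.32). Of 12 mitochondrial proteases and quality-control genes, 4 fell and 0 rose. Afg3l2, a subunit of the protease that processes Mrpl32 protein before it joins the ribosome, fell from 132 ± 2.65 to 88.9 ± 3.51 CPM (-0.57 ± 0.05, 1.48-fold, edgeR adjusted p = 5.2e-06). Bnip3 and Bnip3l, mitophagy receptors that are known HIF targets, fell from 113 ± 8.48 to 38.1 ± 6.55 CPM (-1.57 ± 0.10, 2.98-fold, edgeR adjusted p = 1.1e-07) and from 353 ± 11.8 to 232 ± 10.2 CPM (-0.61 ± 0.06, edgeR adjusted p = 1.3e-05). Fundc1, another mitophagy receptor, fell by 0.33 ± 0.07 on the log2 scale (edgeR adjusted p = 0.00564). These 4 genes passed in all 16 alternative fits. Mrpl32 itself stood at 20.0, 18.1 and 14.3 CPM in WT and 16.7, 14.3 and 17.2 CPM in KO (-0.12 ± 0.12, edgeR adjusted p = 0.515).

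The mRNAs that the mitochondrial ribosome translates were lower in some cases. Of 11 tested mRNAs from mitochondrial DNA, 5 fell and 0 rose, with a median of -0.16, but under the GC and length offset only mt-Nd6 remained called and the median was 0.02. Without KO 3, and without both WT 2 and KO 1, 3 fell. Mt-Nd6, the complex I subunit encoded on the light strand, fell from 399 ± 39.1 to 303 ± 10.4 CPM (-0.40 ± 0.08, edgeR adjusted p = 0.00183). Mt-Co1, mt-Cytb and mt-Nd4 gave -0.16 ± 0.02, -0.19 ± 0.04 and -0.20 ± 0.05 on the log2 scale (edgeR adjusted p = 0.000293, 0.00285 and 0.0111), and -0.04, -0.02 and -0.06 under the offset. The rRNAs mt-Rnr1 and mt-Rnr2 did not pass, although mt-Rnr2 (-0.54 ± 0.24) passed with no filter and without WT 3 (-0.76). WT 2 stood apart in both, at 1685 and 2613 CPM where the other libraries ran from 609 to 871 and from 1041 to 1216 CPM. How rRNA had been removed is not given in the sources used here.

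Of 11 tested regulators of mitochondrial genes, 2 rose and 1 fell. Without WT 1, WT 2 or KO 3, 1 rose, and without KO 1, 3 fell. Epas1, the targeted gene, stood at 20.1, 22.8 and 23.8 CPM in WT and 9.59, 12.7 and 11.5 CPM in KO (-0.98 ± 0.12, edgeR adjusted p = 3.45e-05), every KO library below every WT library. The labels do not say which exon is flanked by loxP, and the count covers the whole gene. Hif1a, which encodes HIF-1α, rose from 76.6 ± 3.71 to 112 ± 3.27 CPM (0.55 ± 0.06, 1.46-fold, edgeR adjusted p = 9.97e-06), every KO library above every WT library and in all 16 alternative fits. Pprc1, a coactivator of NRF1, rose from 34.7 ± 4.92 to 44.8 ± 3.62 CPM (0.37 ± 0.10, edgeR adjusted p = 0.0136), a call lost without WT 1 (0.32), WT 2 (0.31) or KO 3 (0.36). Nrf1 gave 0.06 ± 0.08 and Gabpa -0.15 ± 0.07 on the log2 scale, neither past the test (edgeR adjusted p = 0.622 and 0.125).

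Cell makeup was read from marker lists. Dendritic cell genes such as Itgax (205 CPM in WT, 179 CPM in KO) were present, 4 of 9 tested rose and 3 fell, and Cd209a had 29 reads in all. Of 8 macrophage markers 4 rose, with a summed level of 3602 to 3818 CPM in WT and 4006 to 4410 CPM in KO. Neutrophil markers summed to 34.7 to 48.8 CPM in WT and 41.7 to 61.1 CPM in KO (2 of 5 tested rose), mast cell and basophil markers to 1.16 to 2.25 and 3.49 to 4.41 CPM (2 of 3 rose), and none of 6 lymphocyte markers reached the count filter. Of 12 genes of dividing cells 8 rose and 1 fell, and 4 rose without KO 2 or without KO 3 and 5 without WT 2. Top2a, Mcm5 and Birc5 gave log2 fold changes of 1.03 ± 0.10, 0.51 ± 0.10 and 1.02 ± 0.20, and Pcna -0.40 ± 0.07. Summed levels were 561 to 605 CPM in WT and 509 to 553 CPM in KO over the 12 genes. As 11 of the 12 log2 fold changes were above 0 (median 0.45), the lower sum in KO rests on Pcna and does not describe the list. The part of cell makeup or division in the members' values was not tested, and in bulk RNA fewer cells of a type and less RNA per cell cannot be told apart.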

How the data were processed

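The library kit, the rRNA removal and the strand setting are not stated in the sources used here. The authors deposited raw read counts per gene symbol in 1 table. The submitters' processing notes name mm10, TopHat2, HISAT2, HISAT, SAMtools, HTSeq and DESeq2 without versions or roles. Of its 30587 rows, filterByExpr (minimum count 10) kept 13249, and totals ran from 14668641 to 17884160 reads per library. The fit was edgeR 4.0.16 in R 4.3.3, a quasi-likelihood F test on TMM-scaled counts with no term besides genotype. Benjamini-Hochberg adjustment ran over all 13249 rows, and genes under 0.05 were called. Beyond the noise of counting reads, which is larger for genes with few reads, replicates varied by 8.48% (common biological coefficient of variation). The SE is the size of the log2 fold change divided by √F. CPM were scaled with TMM factors and are given with the SD of 3 libraries. A permutation test of 3 libraries against 3 cannot go below p = 0.10, so none was used. For the 23 repeated symbols (47 rows) the row with most reads was kept.

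Coordinates, exon lengths and overlaps come from GENCODE M21, matched by symbol (98.5% of tested rows), and promoter windows from RefSeq (GRCm38.p6). Alternatives were DESeq2 size factors, library size only, no filter, a stricter filter (10 counts in each library of 1 genotype), the DESeq2 1.42.0 Wald test, limma-voom (limma 3.58.1), robust dispersion, the replicate number as a block, a GC and length offset (mgcv 1.9.3), each library left out in turn, a fit without WT 2 and KO 1, and subunits by position. The procedure was tested on simulated data. The members, lists and alternatives were chosen with earlier results of these data known. Named genes were the called members, the S18-like, stalk, Mrps30 and Mrps36 genes, the most and least abundant member of each subunit, and, of each other list that marks no cell type, up to 4 called genes by lowest p, or the gene of lowest p where none was called. Any others were chosen after their values were seen.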

Additional observations from a re-analysis of the deposited data

How the results depend on the processing

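Medians of all members stayed between 0.00 and 0.08 over the alternatives, and large-subunit and small-subunit medians between 0.00 and 0.06 and between 0.02 and 0.10 when 1 library was left out. Scaling to library size only gave 6 members higher and 0 lower (large subunit 4 and 0, small subunit 2 and 0), and moved the median of all genes by 0.03. The GC and length offset gave 6 higher and 1 lower (large 4 higher, small 2 higher and 0 lower). With no filter 1 member was lower (0 of the large subunit), and the added low rows moved the median of all genes by -0.11. The DESeq2 Wald test gave 2 higher and 1 lower (large 1 and 0). Without WT 2 and KO 1, 0 large-subunit and 2 small-subunit genes were lower. With each library left out in turn, 1 to 4 members were higher and 0 to 4 lower (large subunit 0 to 3 and 0 to 3, small subunit 0 to 2 and 0 to 3), while of all genes 1182 to 1992 were higher and 945 to 1622 lower.

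Values near 0 changed sign: Mrpl34 was 0.031 with library size only, 0.010 with no filter, 0.061 with the offset, 0.069 without WT 2 and KO 1, and -0.037 to 0.061 with single libraries left out. Mrps21 was 0.054 with the offset. Mrps18c was 0.0046 with the offset, 0.0045 without WT 2 and KO 1, and -0.29 to 0.084 with single libraries left out. The cause was not tested. Deviations from the genotype mean had correlations of 0.01, -0.11 and 0.08 between same-numbered WT and KO libraries. The labels do not say whether the numbers pair libraries, and correlations from 3 libraries per genotype cannot decide it. With the replicate block 3 members were higher and 2 lower, with Mrpl1 (0.27), Gadd45gip1 and Rcc1l lost and Mrpl37 gained.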

Other observations

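The pseudogene rows left out of the members held few reads. Mrpl48-ps was at 21, 21 and 14 reads in the WT libraries and at 19, 2 and 19 reads in the KO libraries, so that KO 2 stood apart, and its parent Mrpl48 did not share that pattern (24.9, 24.5 and 26.7 CPM in KO). Mrpl23-ps1 was at 28, 37 and 17 reads (WT) and 26, 28 and 32 reads (KO). Mrps36-ps1 and Mrps36-ps2 had 13 and 4 reads over all 6 libraries. How reads that match both a gene and its copy were counted is not given in the sources used here.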
